A study of Mus musculus with 9 samples.

Results

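Lymphatic endothelial cells (LECs) of mouse epididymal adipose tissue (epiAT) were picked out of 9 single-nucleus RNA-seq (snRNA-seq) libraries by the genes in their nuclei. A nucleus was taken as a LEC nucleus when it held 500 to 3000 genes and at most 40000 unique molecular identifiers (UMIs, each standing for 1 captured RNA molecule), at least 1 UMI in 2 or more of the 6 marker genes Prox1, Mmrn1, Reln, Flt4, Pkhd1l1 and Ccl21a, and UMIs in at most 1 of 5 genes of other cells. Those 5 genes were Pdgfra of progenitors, Adgre1 and Mctp1 of macrophages, Muc16 of the mesothelium and Plin4 of adipocytes. The rule took 1554 of the 76356 nuclei within the limits on genes and UMIs, or 2.04%. Just inside it lay 578 LEC nuclei with 2 marker genes, 976 had 3 or more, and 108 had all 6. Just outside it lay 6899 nuclei with 1 marker gene, 521 nuclei with 2 or more marker genes that also held 2 or more of the other cells' genes, and 103 nuclei that met the marker rule but held over 3000 genes.

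Lymphatic vessels drain interstitial fluid, carry dietary fat and bring immune cells from a tissue to its lymph nodes. Their endothelium differs from that of blood vessels by the transcription factor Prox1, which sets lymphatic identity, and by the receptor Flt4 (VEGFR3), through which the growth factor Vegfc drives lymphatic growth. LECs of the blind-ended capillaries carry Lyve1 and secrete the chemokine Ccl21, which guides dendritic cells into the vessel, whereas collecting vessels hold valves.

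Each library held nuclei pooled from 5 male C57BL/6J mice, so that each diet group was 1 library with no replicate. C, CC and CCC were chow controls of 18, 26 and 39 weeks, so that HH, CCH and HCH had no chow library of their own age. H (18 weeks) and HH (31 weeks) had eaten a high-fat diet (HFD) for 12 and 25 weeks, and HC (26 weeks) and HHC (39 weeks) had then returned to chow for 8 weeks. CCH (30 weeks) ate chow alone until a final 4 weeks of HFD, which HCH (30 weeks) ate as well, after an earlier 12 weeks of HFD and 8 of chow. For tests the libraries were put into 3 diet states by the food at harvest, namely chow (C, CC and CCC, n = 3), HFD (H, HH, CCH and HCH, n = 4) and chow after HFD (HC and HHC, n = 2). The libraries within a state differed in age and in length of feeding, and the chow libraries also in the kind of chow. According to the paper, controls ate a low-fat chow while other mice ate HFD, and both groups ate another chow during weight loss. C was thus harvested on another chow than CC and CCC. The spread behind each p-value includes these differences. CC, CCC, HC and HHC were sequenced as 1 set and the other 5 libraries as another, so both chow after HFD libraries and 2 of the 3 chow libraries share a set that holds no HFD library.

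The libraries held 91687 barcodes and 408905640 UMIs, from 22599619 in CCC to 66615262 in HHC. LEC nuclei carried a median of 1689 UMIs in CCC to 2683 in HCH, and their UMIs summed to 145401 in CCC at the lowest and 863619 in CCH at the highest. Levels below are UMIs of a gene as counts per 1000000 UMIs of the summed nuclei (CPM), leaving mitochondrial genes and Malat1 out of the total. Of the 36 pairs of libraries, each shared 8 to 55 barcodes, at most 0.493% of the smaller library. Intervals given with counts, shares and ratios are 95% exact intervals that cover counting error only.

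The nuclei were not all alike. Clustering of the 1554 nuclei on their variable genes gave 8 clusters, numbered 1 to 8 by size with 512, 357, 160, 145, 126, 90, 85 and 79 nuclei. In clusters 1, 2 and 7 a nucleus carried on average 3.72 to 4.2 of the 6 marker genes, against 2.09 to 2.78 in the other 5 clusters, and a mean of 3 or more was the limit that set these 3 apart, so this restates the rule. They held 954 nuclei (61.4%) together, and carried at most 3 markers of any list of other cells at 2-fold or more above the remaining LEC nuclei. The other clusters carried such markers in larger numbers. Cluster 3 did so for 8 of 8 mesothelial markers, cluster 4 for 11 of 12 adipocyte markers, cluster 5 for 8 of 10 blood endothelial markers, cluster 6 for 5 of 9 progenitor markers and cluster 8 for 15 of 15 macrophage markers.

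**Figure D1:**
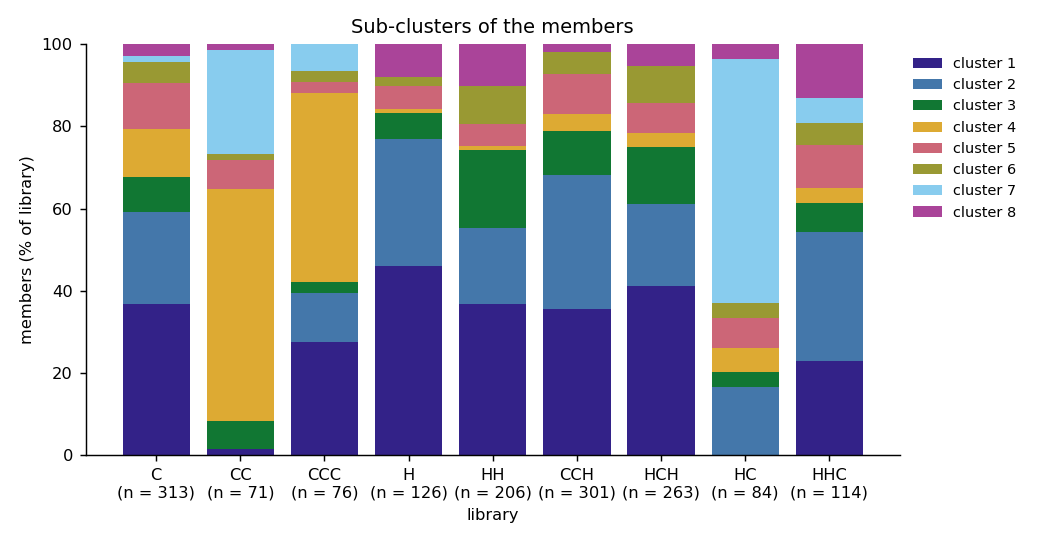
Clusters of the LEC nuclei. For each of the 9 libraries the share (%) of its LEC nuclei that fell in each of the 8 clusters is shown. Clusters 1, 2 and 7, which carry 3 or more of the 6 marker genes per nucleus on average, hold between 26.8% (CC) and 77.0% (H) of a library's LEC nuclei.

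The libraries did not contribute to these clusters alike. In CC 40 of 71 LEC nuclei and in CCC 35 of 76 fell in cluster 4, the one with adipocyte markers, whereas 1 of 126 did in H and 2 of 206 in HH. Cluster 7 held 50 of the 84 LEC nuclei of HC and 18 of those of CC, and none of H, HH, CCH or HCH. Its leading gene was Gm42418, a predicted gene that overlaps the ribosomal RNA repeat, and the 4 libraries with the most Gm42418 in LEC nuclei were CC (73058 CPM), HC (49551), CCC (26245) and HHC (14938), against 1803 to 3788 in the other 5. Clusters 1, 2 and 7 held 19 LEC nuclei of CC and 35 of CCC, so these 2 chow libraries stood apart. The counts of changed genes are therefore also given without CC and without CCC, and HH, which the design sets against CC, is also set against C. HC and HHC have no other chow library of their sequencing set and age. For the main results values are added from nuclei with 3 or more marker genes, or from clusters 1, 2 and 7, where they carry no test because the clusters were built from the same genes.

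The 6 marker genes that chose the nuclei are described here without a test. Prox1, on chromosome 1 (chr1:190118035-190170714, minus strand, GRCm38), stood at 457 CPM in C, 248 in CC, 561 in CCC and on HFD 785 in H, 578 in HH, 849 in CCH, 599 in HCH, and after the return to chow 586 in HC and 603 in HHC. CC was the lowest library, and in clusters 1, 2 and 7 the range was 443 (CC) to 1283 (CCH). Mmrn1, a large secreted protein of the endothelial matrix, ranged from 692 CPM in CC to 1726 in H, and in clusters 1, 2 and 7 from 1453 in HC to 2542 in HCH. Reln, a secreted glycoprotein that LECs pass to the muscle around collecting vessels, ranged from 1683 CPM in CC to 3479 in HC, and in those clusters from 3596 in HH to 5001 in C and 5093 in CCC. Flt4 ranged from 214 CPM in HH to 708 in HC. It was the 1 marker gene whose highest levels were in the 4 libraries of the set with CC and HC, at 377 in CC, 510 in CCC, 708 in HC and 462 in HHC against 214 to 366 in the other 5. Pkhd1l1, a large membrane protein, ranged from 320 CPM in CC to 1014 in HCH.

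UMIs of these genes were also found outside the LEC nuclei. Their difference between LEC nuclei and the blood endothelial and mesothelial nuclei was partly fixed by the choice of nuclei, since the latter were required to hold fewer than 2 of the marker genes. Prox1 was seen in 43.7% to 66.8% of LEC nuclei, in 0.526% to 2.92% of blood endothelial nuclei and in at most 0.763% of mesothelial nuclei. Median depth was 1689 to 2683 UMIs in LEC nuclei, 1654 to 3154 in blood endothelial nuclei and 2102.5 to 3405.5 in mesothelial nuclei. Reln was seen in 62.6% to 85.7% of LEC nuclei and in at most 3.37% of blood endothelial and 1.72% of mesothelial nuclei. Pkhd1l1 behaved otherwise. It was seen in 50.7% to 71.1% of LEC nuclei but also in 55.4% to 79.3% of mesothelial nuclei, where its level was 628 to 1638 CPM, so that Pkhd1l1 did not separate LECs from mesothelium in this tissue. Among the clusters it reached 1650 CPM in cluster 3, which carried the mesothelial markers, and 1764 CPM in cluster 2.

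**Figure D2:**
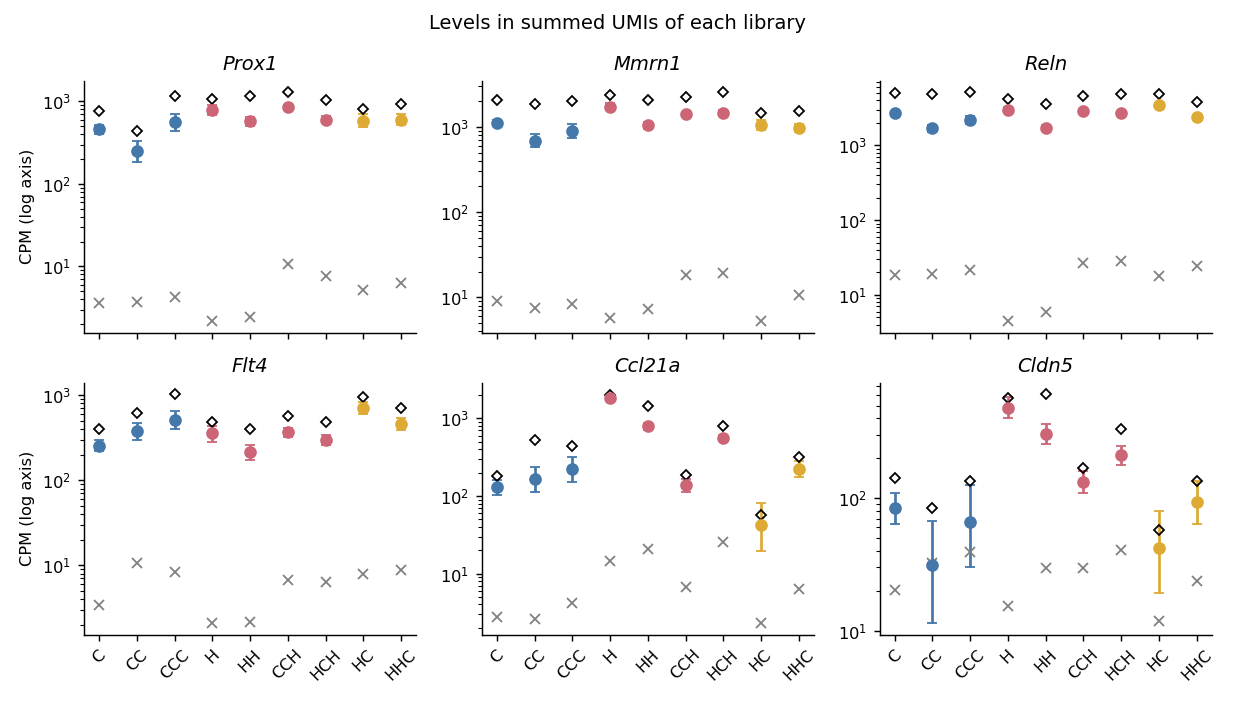
Levels of 6 genes in LEC nuclei by library, in CPM of summed UMIs on a logarithmic axis. Circles with 95% Poisson intervals are all LEC nuclei, diamonds are clusters 1, 2 and 7, and crosses are all remaining nuclei of the library. Ccl21a and Cldn5 are highest in H and HH, whereas the levels of Prox1 in H and HH (785 and 578 CPM) lie within the range of the other libraries (248 to 849 CPM).

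The 2 largest clusters, 1 and 2, differed from each other in genes known from capillaries and from valves. Cluster 1 was led by Scn3a, a sodium channel subunit, Lyve1, the hyaluronan receptor of lymphatic capillaries, Piezo2, a stretch-activated channel, Fgf12 and Kcnn3. It exceeded the remaining LEC nuclei by 2-fold or more in 7 of 13 capillary genes (Lyve1, Ccl21a, Reln, Stab1, Stab2, Mrc1 and Fgl2). Of these Ccl21a and Reln were marker genes of the rule. The remaining LEC nuclei included clusters with fewer marker genes, so the count was partly fixed by the choice of nuclei. How many of all genes passed this limit in a cluster was not counted. Cluster 2 was led by Hs6st3, a heparan sulfate sulfotransferase, Foxp2, a transcription factor, Nrxn3, Asxl3, Kif26b and Tgfa, and exceeded the others in 5 of 18 genes of valves and collecting vessels (Nfatc1, Gata2, Efnb2, Foxp2 and Fat4). Lyve1 stood at 270 CPM in cluster 1 and 28.0 in cluster 2, Ccl21a at 948 and 222, Foxp2 at 834 and 3727, and Pkhd1l1 at 504 and 1764. Foxc2, a transcription factor needed for valves, was low in both (8.6 and 22.9 CPM). The clusters are left unnamed, since both carried genes of either list.

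The 2 clusters were filled unequally across libraries. Cluster 1 held more nuclei than cluster 2 in 7 of 9, with counts of 115 to 70 in C, 58 to 39 in H, in HH 76 to 38, 107 to 98 in CCH, 108 to 53 in HCH and 21 to 9 in CCC. HHC stood on the other side with 26 to 36. In CC, the seventh, the 2 clusters held 1 and 0 nuclei. In HC no nucleus fell in cluster 1 and 14 fell in cluster 2, with 50 in cluster 7, which carried both Reln (5436 CPM) and Piezo2 (1069 CPM) at levels near those of cluster 1 (5808 and 1185).

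To describe what separates LECs from the other endothelium of the tissue, levels were set beside those of 4089 blood endothelial nuclei, which held UMIs in 2 or more of Flt1, Cyyr1, Btnl9, Emcn, Gpihbp1 and Sox17, the same limit on the other cells' genes and fewer than 2 lymphatic marker genes. This is a description, because both sets were chosen by expression. Of 4434 genes with a mean of at least 50 CPM and outside the lymphatic rule, 520 (11.7%) were higher in LEC nuclei in 9 of 9 libraries and 333 (7.51%) were lower in 9 of 9. The LEC nuclei included clusters with markers of other cells, such as cluster 3, and their part in these counts was not tested. Among these genes 3 of 3 mesothelial and 1 of 7 progenitor markers were higher in 9 of 9 libraries. Of 11 macrophage and 11 adipocyte markers 0 were. The genes with the largest median ratios included Apba2, Scn3a, Sh3gl3, Tbx1, D330037F02Rik, Hs6st3, Pard6g, Sema3d, Brinp1, Emid1, A830019P07Rik, Sema3a, Fxyd6 and Stab2. Apba2, an adaptor protein of synapses, led with a median log2 ratio of 8.33, and its level was 305 to 577 CPM. Scn3a followed with a median log2 ratio of 7.35, and its level was 77.5 to 401 CPM. Sema3a and Sema3d, secreted guidance cues, stood at 139 to 862 and 227 to 736 CPM. Tbx1, a transcription factor of lymphatic development, stood at 67.1 to 161 CPM.

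**Figure D3:**
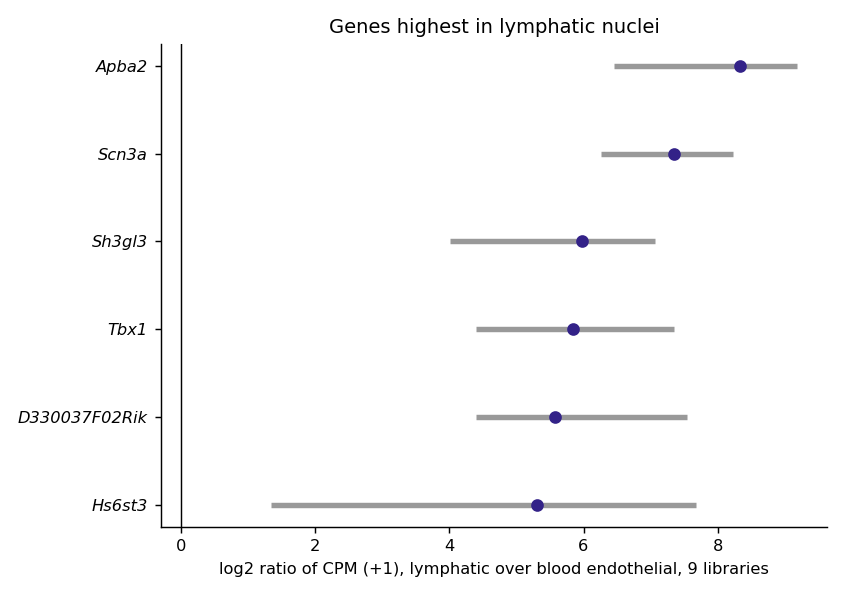
LEC nuclei beside blood endothelial nuclei of the same library. Points are the median and bars the lowest to highest of the 9 libraries, the horizontal axis is the log2 ratio of CPM + 1 (LEC over blood endothelial), and the 6 genes with the largest median ratio are listed, the 6 marker genes of the rule left out. All bars lie above 0, and Apba2 has the largest median (8.33).

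Gene lists of lymphatic function followed the same division to different degrees. Of the capillary genes outside the rule, 7 of 8 with at least 50 CPM were higher in 9 of 9 libraries, among them Lyve1 (mean 85.8 CPM in LEC and 9.82 in blood endothelial nuclei), Klhl4 (514 and 99.0), Stab1, a scavenger receptor (260 and 114), and Sema3d. Of 10 lymphatic transcription factors 4 were higher in all 9 libraries (Nr2f2, Maf, Tbx1 and Nfatc1), with Maf at 593 and 139 CPM and Nr2f2, which switches Prox1 on, at 329 and 140. Klf2, a factor induced by flow, was lower in all 9. Of 10 genes of the Vegfc axis, Kdr, Ptpn14 and Itga9 were higher and Nrp1, the co-receptor used in blood vessels, was lower in 9 of 9 libraries. Nrp2, the co-receptor used in lymphatics, was higher in 8 of 9 libraries, with mean levels of 620 and 413 CPM. Of 9 valve and collecting vessel genes Itga9, Nfatc1, Piezo2 and Foxp2 were higher in all libraries and Tek, the angiopoietin receptor, was lower.

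Genes of fat uptake ran the other way. Of 20 genes of fatty acid and lipid handling 9 were lower in LEC nuclei in 9 of 9 libraries, against 1 that was higher (Abca1, a cholesterol exporter). Fabp4, a fatty acid carrier, stood at a mean of 1141 CPM in LEC and 4611 in blood endothelial nuclei, Cd36, a fatty acid transporter, at 1145 and 3050, and Gpihbp1, which anchors lipoprotein lipase to capillaries, at 58.6 and 273. Gpihbp1 was part of the blood endothelial rule. Of 13 endothelial junction genes 4 were lower in all libraries (Cdh5, Jam2, Pecam1 and Afdn) and 1 higher (Pard3), with Pecam1 at 512 and 1101 CPM.

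The share of LEC nuclei on chow was 2.69% in C (313 of 11647 nuclei), 1.71% in CC, 1.32% in CCC, and on HFD 1.28% in H, 1.55% in HH, 4.13% in CCH (interval 3.69 to 4.61), 2.67% in HCH, and after the return to chow 1.56% in HC and 1.25% in HHC. CCH held the highest share, and the HFD and chow libraries overlapped. The share was 2.41% ± 1.30 (SD, n = 4) on HFD and 1.91% ± 0.705 (n = 3) on chow, a difference of 0.50 points (exact permutation test, two-sided p = 0.8). It was 1.41% ± 0.217 (n = 2) in chow after HFD, 0.50 points below chow (exact permutation test, p = 0.4). Without CCH the difference of HFD and chow turned to -0.07 points. Since macrophages and adipocytes are counted in the denominator, the LEC nuclei were also set against the blood endothelial nuclei.

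For each blood endothelial nucleus there were 0.346 LEC nuclei in C (interval 0.303 to 0.394), 0.195 in CC, 0.197 in CCC and on HFD 0.416 in H (0.335 to 0.514), 0.507 in HH, 0.627 in CCH, 0.485 in HCH, and after the return to chow 0.221 in HC and 0.353 in HHC. The 4 HFD libraries lay above the 3 chow libraries without overlap, with a mean of 0.509 ± 0.0879 (SD, n = 4) against 0.246 ± 0.0869 (n = 3). The mean log2 difference was 1.09 (exact permutation test, two-sided p = 0.0571, which is the smallest that 4 libraries against 3 can give). HC and HHC, at 0.287 ± 0.0933 (n = 2), overlapped chow (log2 difference 0.24, exact permutation test, two-sided p = 0.4, smallest attainable 0.2). Ccl21a, 1 of the marker genes behind these counts, itself varied between libraries. With the rule without Ccl21a, chosen after seeing the data, the log2 difference was 0.92. The range was then 0.360 (H) to 0.598 on HFD and 0.186 to 0.324 (C) on chow. The order between HFD and chow without overlap also held with 3 or more marker genes (0.293 to 0.427 on HFD, 0.106 to 0.209 on chow), and without the LEC nuclei that also held 2 or more blood endothelial marker genes (0.261 to 0.360 and 0.126 to 0.237). With no exclusion gene allowed in either endothelium it held with a smaller log2 difference of 0.68 (0.339 to 0.488 and 0.173 to 0.305). It held when each nucleus was thinned to 1000 UMIs (0.466 to 0.648 and 0.208 to 0.322), which left out 32 to 1676 shallower nuclei per library. Thinned, HC and HHC (0.328 and 0.531) lay above the chow libraries without overlap, HHC within the HFD range, with a log2 difference from chow of 0.61 (exact permutation test, two-sided p = 0.2, the smallest attainable). In clusters 1, 2 and 7 alone there were 0.281 to 0.427 nuclei per blood endothelial nucleus on HFD, 0.0521 to 0.210 on chow and 0.168 to 0.214 in chow after HFD. All 4 HFD libraries belonged to 1 sequencing set. C, the 1 chow library of that set, was the highest of the chow libraries, and H lay nearest to it with overlapping intervals. The blood endothelial nuclei behind the ratio numbered 904 of 11647 nuclei in C, 365 of 4144 in CC and 386 of 5771 in CCC. On HFD they numbered 303 of 9827 in H, 406 of 13330 in HH, 480 of 7287 in CCH and 542 of 9863 in HCH. In H and HH the share of LEC nuclei (1.28% and 1.55%) did not lie above the chow range (1.32% to 2.69%). The part of the blood endothelial counts in the higher ratio was not tested.

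**Figure D4:**
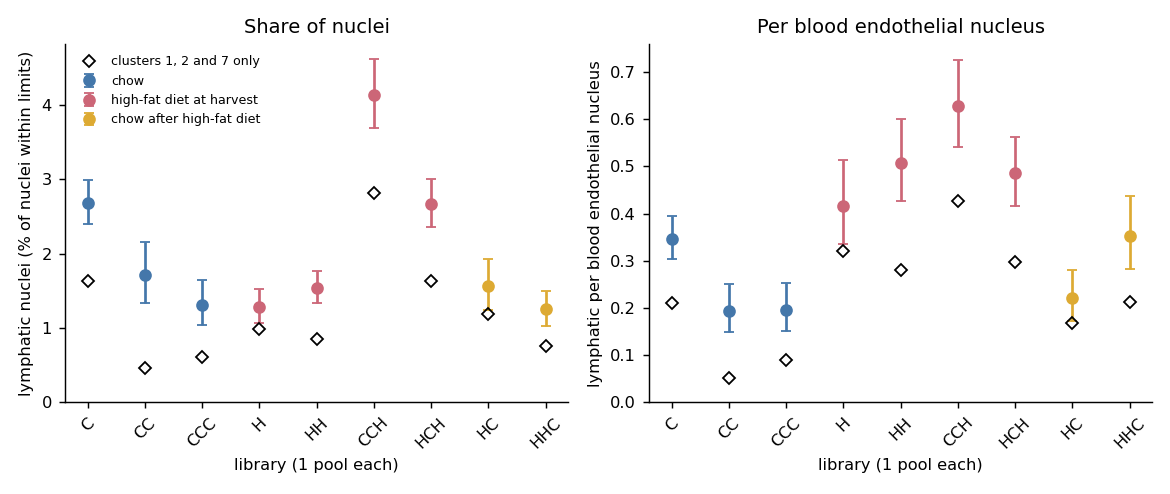
LEC nuclei by library. Left, LEC nuclei as a percentage of nuclei within the limits with 95% exact binomial intervals, right, LEC nuclei per blood endothelial nucleus with 95% exact intervals. Circles are all LEC nuclei and diamonds clusters 1, 2 and 7 alone. In the right panel the 4 HFD libraries (0.416 to 0.627) lie above the 3 chow libraries (0.195 to 0.346).

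Gene by gene, HFD and chow were compared on the UMI sums of LEC nuclei with edgeR's quasi-likelihood test and Benjamini-Hochberg adjustment over 7571 genes, outside the 11 genes of the rule. At an adjusted p under 0.05, 28 genes were higher (0.37%) and 162 lower (2.14%) on HFD. Several of the genes that rose most are known from macrophages. Tyrobp, an adaptor of myeloid receptors, rose by 5.75 ± 1.36 (log2, SE, adjusted p = 0.0431), and C3ar1, Lyz2, Pf4, Cd74 and Cyba, also known from macrophages, were among the 10 largest increases, as was Lum, a matrix proteoglycan of fibroblasts, Ppib, a folding enzyme of the secretory pathway, and the unnamed transcripts Gm20631 and Gm26749. Lyz2, lysozyme, stood at 16.5 CPM in C, 25.8 in CC, 51.0 in CCC and on HFD 875 in H, 1098 in HH, 67.1 in CCH and 638 in HCH. The HFD libraries lay above the chow libraries without overlap, but CCH, after 4 weeks of HFD, stood next to chow. With 3 or more marker genes Tyrobp (adjusted p = 0.0441) and Lyz2 (0.0305) were also called.

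The genes that fell most included some known from adipocytes. Slc1a3, a glutamate transporter, fell by 4.36 ± 0.62 (log2, SE, adjusted p = 0.0062), from 815 CPM in C, 408 in CC and 197 in CCC to 4.13 in H, 15.8 in HH, 51.5 in CCH and 13.5 in HCH. Fam13a, a regulator of adipocyte insulin signalling, fell by 3.66 ± 0.50, and both were called with 3 or more marker genes (adjusted p = 0.0054 for Slc1a3 and 0.0110 for Fam13a). The other genes among the 10 largest decreases were Gm19951, Gm42418, Phkg1, Carmn, Mlxipl, Mdga2, Gm16168 and Ctcflos. Mlxipl (ChREBP) is a transcription factor of fat synthesis. Over all 7571 genes, 7.75% lay higher and 7.57% lower on HFD with no overlap of the HFD and chow libraries.

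These changes mostly had the same sign in blood endothelial nuclei and moved with markers of other cells. All 28 higher genes were also higher on HFD in blood endothelial nuclei, 22 of them by 2-fold or more. Of the 162 lower genes 160 were also lower there, 132 by 2-fold or more. The same fit on blood endothelial sums called 0 of 12509 genes higher and 0 lower on HFD. How many of all genes tested agreed in sign or size between the 2 endothelia was not counted. In the LEC nuclei the 15 macrophage markers summed to 802 to 1021 CPM in the chow libraries and to 5888 in H, 5090 in HH, 843 in CCH and 2908 in HCH. The 12 adipocyte markers summed to 2590 to 5293 CPM on chow and 256 to 919 on HFD. The 8 mesothelial markers summed to 831 to 1263 CPM on chow and 1569 to 2304 on HFD. The 8 smooth muscle and pericyte markers summed to 233 to 259 and 53.7 to 116. Adgre1 and Mctp1 were among the macrophage markers, Plin4 among the adipocyte and Muc16 among the mesothelial markers. The rule limited these genes in a nucleus, so the sums were not free of the choice of nuclei. In blood endothelial nuclei the macrophage sums were 721 to 1154 and 679 to 5881, and the adipocyte sums 1947 to 5892 and 421 to 1311. Of the macrophage markers Adgre1, Trem2, Ms4a7 and Tyrobp were at 0 in CC and Mmp12 in CCH, and of the adipocyte markers Cyp2e1 was at 0 in H. The 84 ribosomal protein genes, whose mature RNAs lie outside the nucleus, summed to 2340 CPM in C, 4400 in CC, 5271 in CCC and on HFD 9477 in H, 9774 in HH, 3089 in CCH and 10958 in HCH. The part of RNA from other cells and from outside the nucleus in the changed genes was not tested.

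**Figure D5:**
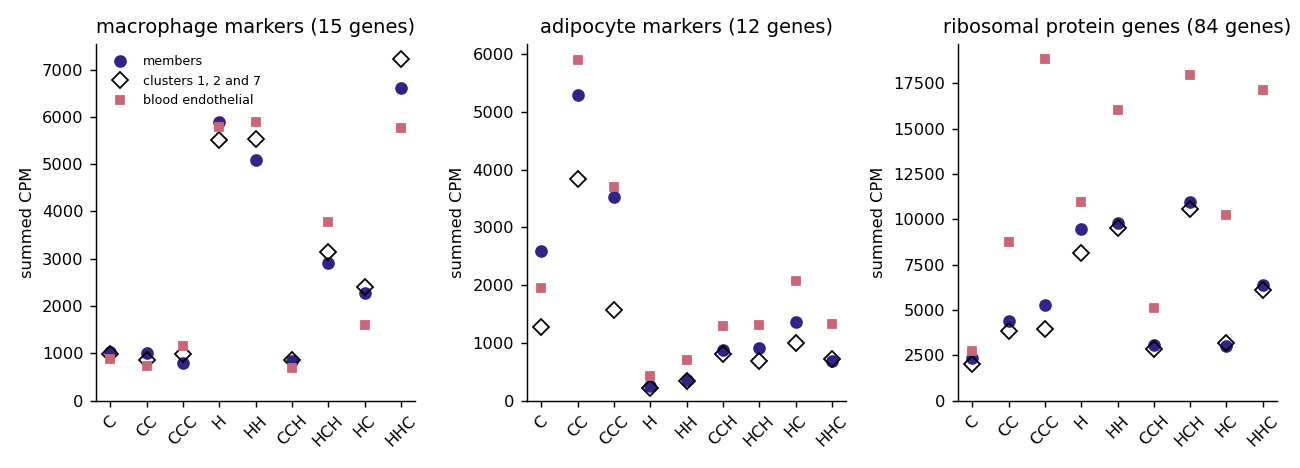
Markers of other cells inside LEC nuclei, by library. Each panel gives the summed CPM of a gene set (15 macrophage markers, 12 adipocyte markers, 84 ribosomal protein genes) in all LEC nuclei, in clusters 1, 2 and 7 and in blood endothelial nuclei. In LEC nuclei the macrophage sum is highest in HHC (6599), H (5888) and HH (5090), and the adipocyte sum is highest in CC (5293), CCC (3521) and C (2590).

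In clusters 1, 2 and 7 the macrophage and adipocyte sums took the same course. Macrophage markers stood at 865 to 989 CPM on chow and 5510 in H, 5537 in HH, 865 in CCH and 3136 in HCH. Adipocyte markers stood at 1276 to 3840 on chow and 225 to 801 on HFD. The smooth muscle and pericyte sums were 145 to 211 and 17.7 to 62.7 there. The mesothelial sums overlapped, at 714 to 1405 on chow and 1153 to 1464 on HFD. With 3 or more marker genes 22 genes were higher and 116 lower on HFD, 9 and 83 of them among the genes above. When no exclusion gene was allowed in a nucleus, 0 genes were higher and 4 lower of 3458 tested, with 194 and 186 at an unadjusted p under 0.05 in edgeR. Of the 35 genes named for the diet contrasts 24 were tested there with the same sign, and the call held for 2 (Slc1a3 and Gm42418) and was lost for 22, Tyrobp, Lyz2, Fam13a and Acsl1 among them. In clusters 1, 2 and 7, whose nuclei are part of the same sums, 25 of the 28 higher and 128 of the 162 lower genes had a value. All of these had the same sign. The median log2 fold change of the higher genes was 2.28 in all LEC nuclei and 2.26 in these clusters. For the lower genes it was -2.14 and -1.42. The counts depended on single libraries. Without C, the 1 chow library in the sequencing set of the HFD libraries, 26 genes were higher and 214 lower, and set and diet then coincided. There were 0 higher and 12 lower genes without CC, 0 and 52 without HCH, 2 and 53 without HH, 5 and 70 without CCC, 6 and 77 without H, 43 and 186 without HC, and 298 and 264 without CCH. With the sequencing set as a term in the fit 0 genes were higher and 10 lower, 9 of them among the 162 (Acacb, Vegfa, Sybu, Fam13a, Slc1a3, Ghr, Nabp1, Pik3r1 and Acaca).

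Leaving out the Notch pathway list, on which 1 of 7 genes fell (Rbpj), 12 lists of lymphatic and endothelial function held 137 genes tested. Of these 1 passed the test (0.73%), against 2.51% of all genes tested. Of 13 lymphatic transcription factors tested none did, nor of 12 genes of the Vegfc axis, 8 capillary genes, 12 valve and collecting vessel genes, 12 leukocyte trafficking genes, 6 adrenomedullin and peptide receptor genes, 6 angiopoietin and Tie genes, 20 semaphorin, plexin, Slit and Robo genes, 20 BMP and TGF-beta genes, 19 basement membrane genes and 11 mechanosensing genes. On simulated counts with the means and depths of this comparison, 18% of genes changed by 1 on the log2 scale were found. Of those raised by 2, 94% were found, and of those lowered by 2, 76%. Changes of 2-fold were thus mostly not detectable with these libraries. Every simulated gene had the same spread between libraries (dispersion 0.0744), so these shares do not apply to genes that vary more. The median log2 fold change was 0.78 over the capillary genes, 0.39 over the transcription factors, 0.29 over the Vegfc axis and 0.44 over the valve and collecting vessel genes, against 0.02 over all genes tested, and 3888 of the 7571 had a positive sign. The medians in clusters 1, 2 and 7 were 0.44, 0.04, 0.16 and 0.34.

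Among the capillary genes Klhl4 stood at 181 to 438 CPM on chow and 428 to 846 on HFD, Sema3d at 227 to 424 and 374 to 736, Stab1 at 134 to 214 and 269 to 388, and Mrc1, the mannose receptor, at 170 to 263 and 186 to 243. Of these 4 Stab1 did not overlap, as 15.3% of all genes tested did not in either direction. Among the transcription factors Maf stood at 372 to 665 CPM on chow and 622 to 815 on HFD, Mef2c at 212 to 365 and 520 to 718, Nr2f2 at 222 to 305 and 322 to 467, and Ets1 at 226 to 337 and 269 to 334. Mef2c and Nr2f2 did not overlap between the states either. Of the Vegfc axis Nrp2 stood at 330 to 620 CPM on chow and 569 to 731 on HFD, Ptpn14 at 328 to 621 and 412 to 566, Itga9 at 217 to 317 and 308 to 392, and Itgb1 at 150 to 268 and 240 to 290. These 4 genes overlapped between the states. Foxp2 stood at 320 to 961 CPM on chow and 1013 to 1549 on HFD, Piezo2 at 186 to 489 and 350 to 599, and Efnb2, an ephrin needed for valves, at 77.5 to 232 and 198 to 380. Foxp2 did not overlap and the other 2 did. None of the genes of this paragraph was called.

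Cldn5, the claudin of endothelial tight junctions, was the 1 junction gene of 14 that passed the test. It stood at 84.2 CPM in C, 31.0 in CC, 65.6 in CCC and on HFD 483 in H, 306 in HH, 132 in CCH, 211 in HCH, and after the return to chow 42.2 in HC and 93.7 in HHC. The 4 HFD libraries lay above the 3 chow libraries, and HC and HHC lay within or near the chow range. Cldn5 rose by 2.03 ± 0.45 on HFD (log2, SE, adjusted p = 0.0339), with an adjusted p of 0.0275 in nuclei with 3 or more marker genes and 0.438 with the sequencing set in the fit. It was also lost when no exclusion gene was allowed (log2 difference 1.55, adjusted p = 0.227) and without the nuclei that held 2 or more marker genes of both endothelia (1.93, adjusted p = 0.107). The call rested on single libraries as well, since it was lost without CC (adjusted p = 0.229), CCC (0.119), C (0.053), H (0.0698), HH (0.0854) or HCH (0.05595), and the adjusted p was 0.532 without CC and CCC together. The log2 difference stayed between 1.63 and 2.47 in these fits. In clusters 1, 2 and 7 its level was 84.4 to 142 CPM on chow, 170 to 607 on HFD, and 57.5 in HC and 135 in HHC. Blood endothelial nuclei held Cldn5 at 88.9 to 166 CPM on chow and 228 to 390 on HFD. Set against ribosomal protein UMIs, which rose in the same libraries, Cldn5 gave 36.0 UMIs per 1000 in C, 7.04 in CC, 12.4 in CCC and on HFD 51.0 in H, 31.3 in HH, 42.7 in CCH and 19.2 in HCH, and on this scale HFD and chow overlapped.

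Ccl21a, on chromosome 4 (chr4:42772860-42773993, minus strand, GRCm38), encodes the chemokine that draws Ccr7-bearing dendritic cells into lymphatic capillaries. It was the marker gene that varied most between libraries. The genome holds near-identical copies of this gene, so reads may be split among them and the level is uncertain in that respect. Ccl21a stood at 129 CPM in C (86 UMIs), 165 in CC (32), 226 in CCC (31), and on HFD 1862 in H (451), 799 in HH (355), 138 in CCH (115), 558 in HCH (413), and after the return to chow 42.2 in HC (9) and 225 in HHC (72). H, HH and HCH lay above all other libraries, and CCH, after 4 weeks of HFD alone, lay within the chow range. These levels are a description, because Ccl21a helped to choose the nuclei. The levels in clusters 1, 2 and 7 were 182 CPM in C, 527 in CC (25 UMIs) and 444 in CCC on chow, and 1992 in H, 1432 in HH, 188 in CCH and 792 in HCH on HFD, with 57.5 in HC and 314 in HHC.

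Because Ccl21a was in the rule, the nuclei were chosen again with 2 or more of the 5 other marker genes, an alternative added after the levels had been seen. This left 109 of 126 nuclei in H, 161 of 206 in HH, 205 of 263 in HCH, 293 of 313 in C and 68 of 71 in CC. Among them Ccl21a stood at 102 CPM in C, 155 in CC and 214 in CCC on chow, and at 2095 in H, 903 in HH, 128 in CCH and 638 in HCH on HFD, with 42.2 in HC and 210 in HHC. H, HH and HCH again lay above all other libraries. The ratio was 20.6 (interval 15.8 to 27.2) of H to C, 5.82 (3.97 to 8.85) of HH to CC, 8.86 (6.73 to 11.8) of HH to C, 4.97 (3.97 to 6.27) of HCH to CCH, 0.27 (0.11 to 0.59) of HC to CC and 0.98 (0.62 to 1.61) of HHC to CCC. In the edgeR fit of these nuclei Ccl21a differed between HFD and chow by 2.61 ± 0.76 (log2, SE, edgeR adjusted p = 0.0799) and between chow after HFD and chow by -0.21 ± 0.93 (adjusted p = 0.974), so neither passed. Within cluster 1 alone Ccl21a stood at 262 CPM in C (115 nuclei), 554 in CCC (21), 2956 in H (58), 1886 in HH (76), 242 in CCH (107), 1099 in HCH (108) and 543 in HHC (26), while CC held 1 nucleus and HC none. Within cluster 2 it was lower in each of these libraries, from 53.6 CPM in C to 683 in H and 612 in HH. Lyve1 in cluster 1 spanned a narrower range, from 148 CPM in HHC (12 UMIs) to 371 in HH. It stood at 339 CPM in H and 287 in HCH, against 256 in C, 154 in CCC (5 UMIs) and 242 in CCH. H, HH and HCH were thus the highest libraries for Lyve1 there as well. Per 1000 UMIs of ribosomal protein genes Ccl21a gave 55.3 in C, 37.6 in CC, 42.9 in CCC and on HFD 197 in H, 81.7 in HH, 44.6 in CCH, 50.9 in HCH, and after the return to chow 14.0 in HC and 35.3 in HHC. On that scale H and HH remained the 2 highest libraries, HCH fell within the chow range, and HC was the lowest on either scale. The same ratio in clusters 1, 2 and 7 was 245 in H, 151 in HH, 138 in CC, 112 in CCC and 89.8 in C, so that HH stood close to CC there, and HCH (74.8) and CCH (65.6) lay below the 3 chow libraries. All remaining nuclei of a library held Ccl21a at 14.5 CPM in H, 20.9 in HH and 25.3 in HCH and at 2.29 to 6.70 in the other 6 libraries.

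Several genes of lipid and insulin handling fell on HFD. Of 26 lipid genes tested 6 fell and none rose on HFD, against 2.14% and 0.37% of all genes, among them Acsl1, an acyl-CoA synthetase, by 2.46 ± 0.41 (log2, SE, adjusted p = 0.0097), Dgat1, a triglyceride-forming enzyme, by 2.11, Slc27a1, a fatty acid transporter, by 1.98, and Pnpla2, the triglyceride lipase, by 1.86. Of 16 genes of insulin and glucocorticoid response 3 fell, namely Irs1, the insulin receptor substrate, by 2.03, Pik3r1, a subunit of PI3 kinase, by 1.57, and Zbtb16, a glucocorticoid-induced factor, by 1.48. The adipocyte markers moved the same way, with 8 of 11 called lower (2.14% of all genes). Acsl1 was on both the lipid and the adipocyte list, so the counts of these lists were not independent. Irs1 stood at 174 CPM in C, 124 in CC, 168 in CCC and on HFD 20.6 in H, 40.5 in HH, 55.1 in CCH and 35.1 in HCH, without overlap. With 3 or more marker genes Acsl1 (adjusted p = 0.0241), Slc27a1 (0.0116), Irs1 (0.0204), Pik3r1 (0.0126) and Zbtb16 (0.0233) passed, and Dgat1 (0.0784) and Pnpla2 (0.187) did not. Zbtb16 stood at 1137 to 1570 CPM on chow and 355 to 649 on HFD, 835 in HC and 341 in HHC. With the sequencing set in the fit, of these 7 genes Pik3r1 passed (adjusted p = 0.0227). Among 7 Notch pathway genes Rbpj, the DNA-binding partner of Notch, fell by 0.92 (adjusted p = 0.0257), which was not called with 3 or more marker genes (adjusted p = 0.231).

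Lysosomal and antigen presentation genes were high where macrophage markers were high. None of 19 lysosomal genes passed, and their median log2 fold change was 1.25 on HFD against 0.02 over all genes. Ctsd, a lysosomal protease, stood at 61.7 CPM in C, 124 in CC, 80.2 in CCC and on HFD 1404 in H, 929 in HH, 99.5 in CCH, 561 in HCH, and after the return to chow 309 in HC and 1312 in HHC. CCH lay within the chow range, and HHC stood near H. Psap, a lysosomal activator protein, took the same course from 274 CPM in C, 274 in CC and 335 in CCC to 1656 in H, 249 in CCH and 2481 in HHC. Of 6 MHC class II genes Cd74, the invariant chain, rose by 3.52 ± 0.83 (log2, SE, adjusted p = 0.0433, and 0.0682 with 3 or more marker genes), and of 13 macrophage markers 4 rose (Tyrobp, Lyz2, C1qc and C1qa), against 0.37% of all genes. Interferon-stimulated genes (10 tested) and genes of NF-kB and inflammation (12 tested) held no call.

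After the return to chow no gene passed the test. At an adjusted p under 0.05 edgeR called 0 of 7571 genes higher (0%) and 0 lower (0%) in chow after HFD than in chow, with 386 and 423 at an unadjusted p under 0.05, and DESeq2 called 13 and 13. Without CCH, whose spread enters the fit, 51 genes were higher and 18 lower. Maf stood at 445 CPM in HC and 612 in HHC, Klhl4 at 534 and 600, Nrp2 at 900 and 740, and Piezo2 at 778 and 369, against 372 to 665, 181 to 438, 330 to 620 and 186 to 489 on chow. Klhl4 and Nrp2 lay above the chow libraries in both, as 12.8% of all genes tested did, whereas Maf and Piezo2 overlapped them. Cd44, the hyaluronan receptor of leukocytes, stood at 197 and 237 CPM against 20.7 to 54.1 on chow, and Lyz2 at 113 and 634 against 16.5 to 51.0. The macrophage markers summed to 2274 CPM in HC and 6599 in HHC, above the 802 to 1021 of chow, and the adipocyte markers to 1355 and 687, below the 2590 to 5293 of chow.

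A direct test asked in which genes the diet response of LEC nuclei differed from that of blood endothelial nuclei of the same libraries, with the library as a block. Between HFD and chow, 48 of 11961 genes responded more in the positive direction in LEC nuclei (0.401%) and 18 more in the negative direction (0.15%). Maf differed by 1.48 ± 0.33 (log2, SE, edgeR adjusted p = 0.0415). It stood at 372 to 665 CPM on chow and 622 to 815 on HFD in LEC nuclei, and at 112 to 233 and 45.4 to 151 in blood endothelial nuclei. The difference was 1.61 with 3 or more marker genes (adjusted p = 0.0144), and with the sequencing set by class in the fit it was 0.50 (adjusted p = 0.972).

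Nrp1, a co-receptor of semaphorins and of Vegf, differed the other way by -1.27 ± 0.24 (log2, SE, adjusted p = 0.0139). In LEC nuclei it stood at 373 CPM in C, 336 in CC, 211 in CCC and on HFD 103 in H, 169 in HH, 189 in CCH and 180 in HCH, without overlap between the states, whereas in blood endothelial nuclei it stood at 554 to 805 CPM on chow and 712 to 903 on HFD. Nrp1 in clusters 1, 2 and 7 was at 96.5 to 295 CPM on chow and 5.91 to 52.6 on HFD, and with 3 or more marker genes the difference was -1.77 (adjusted p = 0.0054). Rgcc, a regulator of the cell cycle, differed by -1.95 (adjusted p = 0.0098), from 143 to 241 CPM on chow and 6.75 to 44.6 on HFD in LEC nuclei to 160 to 391 and 107 to 189 in blood endothelial nuclei. Adamtsl1, a matrix protein, differed by 1.26 (adjusted p = 0.0471) and by 1.46 with 3 or more marker genes (adjusted p = 0.0234).

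The genes with the largest differences upward were Ncam2 (3.89), Spock3 (3.57), Ptprt (3.36), Rgs7bp (2.80) and Gm16685 (2.58), and for Ncam2 and Rgs7bp the blood endothelial side moved. Rgs7bp, which recruits regulators of G protein signalling to the membrane, stood at 87.8 to 143 CPM on chow and 49.5 to 120 on HFD in LEC nuclei, and at 36.8 to 136 and 1.81 to 13.5 in blood endothelial nuclei. The largest differences downward were those of Mdga2 (-4.66), Rgcc, Zfp366 (-1.95), Scarb1 (-1.69) and Ccdc85a (-1.64). Of the other genes on the lists that passed, Ccbe1, which activates Vegfc (1.82), Sema5a (1.80), Sema3c (1.33), Wt1 (1.52) and Acacb (-1.29), none passed with 3 or more marker genes, and Sema3c and Sema5a changed sign there (-0.68 and -0.06). Ccbe1 in clusters 1, 2 and 7 stood at 24.6 to 84.4 CPM on chow and 0 to 40.0 on HFD. The counts were 17 and 9 with 3 or more marker genes, 0 and 2 without CC, 12 and 6 without HCH, 17 and 9 without HH, 25 and 10 without CCC, 36 and 12 without H, 110 and 88 without C, and 1 and 4 with the sequencing set by class in the fit.

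For chow after HFD against chow, 0 genes differed upward (0%) and 1 downward (0.00836%) between the 2 endothelia, with 326 and 393 at an unadjusted p under 0.05 in edgeR. The gene was Bank1, a scaffold of B cell signalling (-3.30 ± 0.46, log2, SE, adjusted p = 0.0024), and no gene passed with 3 or more marker genes, without CCC or without HHC. Bank1 stood at 45.1 CPM in C, 82.6 in CC, 313 in CCC, 23.4 in HC and 34.4 in HHC in LEC nuclei, and at 32.9, 23.3, 119, 72.4 and 193 in blood endothelial nuclei. CCC held the highest level in LEC nuclei.

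The 5 contrasts between single libraries that the design sets out have no replicate, so genes are counted past 2-fold with no test, among genes with at least 20 UMIs over both sums. H with C gave 805 genes higher (11.1%) and 867 lower (12%) of 7241, HH with CC 1383 (21.3%) and 568 (8.76%) of 6484, HC with CC 436 (10.1%) and 430 (9.94%) of 4325, HHC with CCC 500 (9.87%) and 350 (6.91%) of 5065, and HCH with CCH 960 (10.3%) and 247 (2.66%) of 9287. HH (31 weeks) and CC (26 weeks) differ in age and sequencing set. With C, of the same set but 18 weeks old, HH gave 1272 (15.3%) and 584 (7.05%) of 8287. The split of HH with CC moved to 1116 and 746 under TMM scaling, and the other 4 splits moved by less than 10 points. H with C and HCH with CCH, which share no library, had 305 higher genes in common, 37.9% of the first and 31.8% of the second, and 66 lower genes, 7.61% and 26.7%. Of the genes higher in H with C 3 were lower in HCH with CCH, and of those lower in H with C 36 were higher. HCH and CCH differ in an earlier period of HFD and were of the same age, set and last diet. In both contrasts the ribosomal protein sums of LEC nuclei differed, at 9477 CPM in H and 2340 in C, and 10958 in HCH and 3089 in CCH. The macrophage marker sums did so as well, at 5888 and 1021, and 2908 and 843. The part of such genes in the shared counts was not tested.

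Lists set beside these shares showed where the members stood. Of the lysosomal genes 14 of 19 were at least 2-fold higher in H with C, 13 of 19 in HH with CC (14 of 19 in HH with C), 6 of 16 in HC with CC, 13 of 19 in HHC with CCC and 13 of 19 in HCH with CCH, and none was lower in any of these. MHC class II genes were higher in 5 of 5, 5 of 5, 4 of 4 and 6 of 6 in the contrasts other than HC with CC. Macrophage markers were higher in 10 of 13, 10 of 12, 4 of 6, 8 of 10 and 10 of 13, and 1 was lower in each contrast but HCH with CCH (Cd163 in H with C and F13a1 in the other 3). The capillary genes outside the rule were higher in 2 of 8 in H with C (Stab2 and Fgl2), 6 of 8 in HH with CC but 2 of 8 in HH with C (Stab2 and Fgl2), 3 of 6 in HC with CC, 2 of 8 in HHC with CCC (Pdpn and Klhl4) and 1 of 8 in HCH with CCH (Fgl2), with none lower. Of the Vegfc axis, H with C had Kdr higher and Nrp1 and Ccbe1 lower among 11 genes, HH with CC had Vegfd and Adamts3 higher among 10 (HH with C none higher and Nrp1 lower among 11), HC with CC had Nrp2, Vegfd and Itga9 higher among 9, HHC with CCC had none of 10, and HCH with CCH had Svep1, a matrix protein that binds the lymphatic receptor system, higher among 12.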

How the data were processed

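Nuclei of epididymal adipose tissue were profiled with droplet 3' snRNA-seq in 9 libraries. The authors aligned and counted reads with Cell Ranger 6.1.2 against mm10, introns included, and deposited raw UMI counts per gene and barcode. The submitters' notes also name Seurat 4.1.0. These counts, for 32285 genes, were used as deposited. The cell type annotation of the study was not used here. No doublet caller or correction for free RNA was run, so doublets were limited only by the 5 exclusion genes and by the limit of 3000 genes. The members, gene lists and tests were chosen with earlier results of these data known.

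UMIs of LEC nuclei were summed per library, leaving 13 mitochondrial genes and Malat1 (14 genes) out of totals. Sums were tested with edgeR 4.0.16 (quasi-likelihood, TMM, filterByExpr, R 4.3.3) with 3 diet states in 1 fit, and at a threshold of 0.05 on Benjamini-Hochberg adjusted p. The diet response of LEC and blood endothelial sums was compared in 1 fit with the library as a block. DESeq2 1.42.0 was an alternative. The 9 libraries were pools of mice, and p-values measure the spread between libraries of a diet state. The fit was tested on simulated counts. Clusters were Leiden clusters (scanpy 1.11.5, resolution 0.5, 2000 variable genes, 20 principal components). Ratios and shares have exact 95% intervals and permutation tests were exact.

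Named genes were the rule genes, the 10 largest changes each way among called genes (5 in the comparison of the 2 endothelia), up to 4 called members of each list or, where none passed, its 2 to 4 most abundant members, the 15 genes highest over blood endothelium (1 is not reported here) and up to 10 leading genes per cluster. Genes named beside the counts of single-library contrasts or by whether they overlapped, such as Lyve1, Kdr and Svep1, were chosen after their values were seen. Positions are from GENCODE vM21 on GRCm38.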

Additional observations from a re-analysis of the deposited data

Results flagged for a closer look

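In the 4 HFD libraries C3ar1 stood at 4.79 CPM in LEC nuclei of CCH and at 63.0 to 70.2 CPM in H, HH and HCH. The gap of CCH to its nearest neighbour, relative to the range of the 4 libraries, exceeded Dixon's 95% critical value for 4 values. It was the 1 such value in 44 groups of libraries and genes tested, and chance alone marks about 1 in 20. The 15 macrophage markers summed to 843 CPM in CCH and 2908 to 5888 in the other 3, and their part in the level of C3ar1 was not tested.

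In 18 named genes the response to HFD differed between LEC and blood endothelial nuclei by a test of the difference itself (edgeR, adjusted p under 0.05). On the log2 scale the LEC response lay above the blood endothelial one by 3.89 for Ncam2, 3.57 for Spock3, 3.36 for Ptprt, 2.80 for Rgs7bp, 2.58 for Gm16685, 1.82 for Ccbe1, 1.80 for Sema5a, 1.52 for Wt1, 1.48 for Maf, 1.33 for Sema3c and 1.26 for Adamtsl1. It lay below it with differences of -4.66 for Mdga2, -1.95 for Rgcc, -1.95 for Zfp366, -1.69 for Scarb1, -1.64 for Ccdc85a, -1.29 for Acacb and -1.27 for Nrp1. For chow after HFD the response of Bank1 differed by -3.30. Of these 19 results 3 kept their call without CC, and 5 with the sequencing set by class in the fit. With 3 or more marker genes 18 were tested, of which 8 kept their call, 8 lost it and 2 changed sign (Sema3c and Sema5a). Wt1 was on the list of mesothelial markers and Acacb on that of adipocyte markers. The change in cluster makeup between libraries was not tested as a part of these differences.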

How the results depend on the processing

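No paired analysis was possible because each diet group was 1 library and the labels carry no replicate numbers, so diet states could not be paired, and only the 2 endothelia of a library were blocked by library. Of the differences in LEC nuclei, the HFD minus chow share turned to -0.0745 points without CCH and ran from -0.0745 to 0.891 over the libraries left out, and the log2 difference per blood endothelial nucleus ran from 0.947 to 1.36, and was 0.676 with no exclusion gene allowed. For chow after HFD minus chow the share difference ran from -0.794 to -0.109 points and the log2 difference per blood endothelial nucleus from -0.0986 (without HHC) to 0.576, and it was -0.0340 without the nuclei with 2 or more markers of both endothelia and 0.613, with no overlap, thinned to 1000 UMIs. With the counts of genes higher and lower on HFD (28 and 162), DESeq2 gave 107 and 211, no filter on low counts 67 and 188, the sequencing set as a term 0 and 10, no exclusion gene allowed 0 and 4 (of 3458 genes tested), the rule without Ccl21a 49 and 195, and leaving out CC and CCC together 0 and 9. The last 2 were chosen after seeing the data. Over single libraries left out the counts ran from 0 to 298 and from 12 to 264. For chow after HFD, DESeq2 gave 13 and 13, and single libraries left out gave 0 to 51 and 0 to 18.

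For the difference between the 2 endothelia on HFD (48 and 18), the set by class gave 1 and 4, 3 or more marker genes (added after seeing the data) 17 and 9, and single libraries left out 0 to 110 and 2 to 88. For chow after HFD (0 and 1) these gave 1 higher with the set by class, 0 lower with 3 or more marker genes, and 0 to 1 and 0 to 4. Sema3c (-0.68) and Sema5a (-0.062) reversed with 3 or more marker genes. Counts of genes past 2-fold fell along with the genes that could be counted, so a lower count was not always a lower share. The settings were at least 50 UMIs, no exclusion gene and 3 or more marker genes, each set against the main one. H with C gave 643 of 4004, 858 of 3995 and 1070 of 5285, against 1672 of 7241. HH with CC gave 756 of 3189, 899 of 2716 and 1115 of 3874, against 1951 of 6484. HC with CC gave 263 of 1902, 244 of 1046 and 577 of 2895, against 866 of 4325. HHC with CCC gave 248 of 2281, 298 of 1840 and 530 of 3128, against 850 of 5065. HCH with CCH gave 469 of 5874 and 776 of 5689 for the first 2, against 1207 of 9287. Where no reason is given the cause was not tested. Of 35 named genes of the diet contrasts 35 kept their call with DESeq2, 3 with the set as a term, 3 without CC, 21 of 32 with 3 or more marker genes and 2 of 24 with no exclusion gene allowed. At these depths and numbers of libraries the simulated counts gave few calls of 2-fold changes, and the part of depth was not tested.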

Other observations

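Outside the main comparisons, the nuclei that lay just beyond the rule differed between libraries. Nuclei with 2 or more marker genes that also held 2 or more genes of other cells numbered 136 in HCH, 82 in CCH, 73 in HHC, 56 in C, 41 in CC, 39 in CCC, 39 in HH, 32 in HC and 23 in H. The LEC nuclei themselves numbered 263 in HCH and 126 in H.

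Of the LEC nuclei 561 (36.1%) also held 2 or more of the 6 blood endothelial marker genes, from 18.4% in CCC to 43.9% in HHC. Of those genes Cyyr1 and Emcn stood at 428 and 313 CPM in cluster 1 and at 642 and 653 in cluster 2, while Flt1 stood at 28.8 and 14.0 against 1262 CPM in cluster 5. Mctp1, chosen as a gene of macrophages, stood at 423 CPM in cluster 1, 292 in cluster 2 and 504 in cluster 7, and Adgre1, its companion in the rule, at 34.5, 39.5 and 16.6.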
